A study of Mus musculus with 6 samples.

Results

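The type I interferon-stimulated genes are the genes that most cells switch on when they sense type I interferon. The set described here holds 35 mouse genes, taken by symbol, each with every probe annotated with that symbol. Of these, 33 had a named probe among 19041 named genes on the array, and 62 probes represented them. Herc6 and Ifi44 had no named probe, so no expression value is given for them. Signal passed the filter, which asked for detection above background on at least 3 of the 6 arrays, for 52 probes and 31 genes, of 10839 genes tested in all. Ifit1 and Xaf1 were detected on no array.

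RNA came from tumours of 4T1 cells, which stem from a mammary carcinoma of a BALB/c mouse. The cells carried either a lentivirus encoding mouse uPA, the urokinase-type plasminogen activator, or the same kind of virus without an insert. All tumours grew in the fifth mammary fat pad of female BALB/c mice aged 8 to 10 weeks and were taken on day 7, with 3 arrays for each group. Neither the labels nor the design text name the vector's promoter, say whether the transduced cells were a pool or a clone, or state that each array came from its own mouse. The p-values therefore measure only the spread between these samples, which may be technical.

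Plau, which encodes uPA, read 12.97, 13.16 and 12.70 on the log2 intensity scale on empty vector arrays 1 to 3. It read 11.94, 12.28 and 12.20 on the arrays labelled uPA overexpression. It was thus lower by label, with a log2 difference of -0.80 (SE 0.154, adjusted p = 0.0326). With each array left out in turn it lay between -0.92 and -0.69 but no longer passed the threshold (adjusted p 0.0518 to 0.108). No source here says whether its probe can read the inserted sequence. Each direction below is therefore one between arrays by their labels, and the second group is called the uPA-labelled arrays. Mean raw intensity ran from 415.7 to 460.8 and the share of probes detected from 43.6% to 46.1%. Marker genes of mammary epithelium and 4T1 carcinoma were present, 10 of 12 passing the filter, while Epcam was detected on no array. Skeletal muscle markers set arrays apart within both groups. Acta1, skeletal muscle actin, read 4.86, 4.74 and 10.18 on empty vector arrays 1 to 3 and 7.10, 8.29 and 12.12 on uPA-labelled arrays 1 to 3.

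Type I interferons bind a receptor made of Ifnar1 and Ifnar2. The receptor's kinases activate Stat2, which joins Irf9 in the complex ISGF3, and this complex binds interferon-stimulated response elements near the genes described here. The products block viral replication, sense foreign nucleic acid, tag proteins with the ubiquitin-like protein Isg15 and hold the response in check. In tumours such genes can be active in carcinoma cells, in macrophages and in dendritic cells alike.

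The core of the response element, searched as GAAA, any 2 bases and GAAA again, was sought on both strands in RefSeq promoters of the build GRCm38.p6, each 250 bases before to 50 bases after a start site. Overlapping matches were allowed. Of 26 members with a promoter in the table, 12 held a match (46.2%), against 1079 of 27025 genes (3.99%). Herc6 and Ifi44, which have no expression value here, are among the 26 and held no match. A match describes the letters only, not a bound site. Promoters are shown for the 4 members with the smallest p in the comparison of groups that held a match, with the match in capitals and the strand of the gene written 5′ to 3′. Oas3 lies at chr5:120777691-120777770 on the minus strand, Oas1g at chr5:120887585-120887664 on the minus strand, Bst2 at chr8:71537556-71537635 on the minus strand and Ifih1 at chr2:62646206-62646235 on the minus strand.
Oas3: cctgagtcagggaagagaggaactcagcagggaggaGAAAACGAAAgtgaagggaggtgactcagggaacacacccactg
Oas1g: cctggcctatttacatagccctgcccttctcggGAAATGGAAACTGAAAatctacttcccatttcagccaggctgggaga
Bst2: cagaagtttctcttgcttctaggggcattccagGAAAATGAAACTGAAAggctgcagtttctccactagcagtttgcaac
Ifih1: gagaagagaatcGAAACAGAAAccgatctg

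Isg15, Ifit3 and Rsad2 are added because they varied widely between arrays, and this choice was made after their values were seen. Isg15 lies at chr4:156200847-156200926 on the minus strand, Ifit3 at chr19:34583354-34583433 on the plus strand and Rsad2 at chr12:26456529-26456608 on the minus strand. The promoter of Isg15 held 3 overlapping matches on the gene's strand, that of Ifit3 2 matches and that of Rsad2 1 match on the other strand, where the capitals read as TTTC, 2 bases and TTTC.
Isg15: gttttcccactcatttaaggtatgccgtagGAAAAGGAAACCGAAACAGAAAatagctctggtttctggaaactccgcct
Ifit3: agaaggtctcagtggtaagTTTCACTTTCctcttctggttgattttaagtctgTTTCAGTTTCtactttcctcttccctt
Rsad2: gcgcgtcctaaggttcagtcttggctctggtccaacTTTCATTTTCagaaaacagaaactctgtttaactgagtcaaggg

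No interferon-stimulated gene passed the test between the groups. By limma with Benjamini-Hochberg adjustment over 10839 genes, 0 of 31 members had an adjusted p under 0.05, against 5.41% of all genes tested (586, with 2.31% higher and 3.1% lower on the uPA-labelled arrays). At an unadjusted p under 0.05 there were 4 members (Oas3, Rtp4, Oasl2 and Trim25), against 21.3% of all genes. Without the filter, 0 of 33 members passed, against 2.83% of 19041 genes, and 7 had an unadjusted p under 0.05, against 16.9%. The members' median log2 difference was -0.12, against 0.00 (-0.0027) over all genes tested, with 22 members lower and 9 higher. Differences ran from -0.69 for Usp18 to 0.62 for Bst2. The groups did not overlap for 6 members, all lower on the uPA-labelled arrays, against 15.5% of all genes lower without overlap and 29.7% in either direction. These 6 make 19.4% of the members tested, each read by its brightest tested probe. Among them is Oas3, which was detected on 1 uPA-labelled array only and passed the filter through the empty vector arrays.

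The group values hide a wide spread inside the uPA-labelled group. The mean level of the 31 members, each centred on its own mean of the 6 arrays, was 0.09, -0.05 and 0.11 on empty vector arrays 1 to 3. On uPA-labelled arrays 1 to 3 it was -0.31, -0.05 and 0.21. The lowest and the highest of the 6 values thus belonged to arrays of the same label. A member's range within the uPA-labelled group had a median of 0.57 log2 units, against 0.24 over all genes. Within the empty vector group both medians were 0.29.

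Array 3 of the uPA-labelled group was above array 1 for 27 of 31 members (87.1%), against 48.7% of all genes. The median of that difference was 0.50 for the members and -0.01 over all genes. For 6 members it exceeded 1 log2 unit (19.4%, against 1.12% of all genes): Usp18, Ifit3, Cmpk2, Isg15, Rsad2 and Mx2. No member was higher on array 1 by that much. Usp18 ranked 56, Ifit3 71, Cmpk2 77, Isg15 85 and Rsad2 88 among the 10839 genes ordered by this difference. The exceptions to the direction were Isg20, Ifih1, Parp9 and Dtx3l. Of the members 9 were highest of all arrays on uPA-labelled array 3 and lowest of all on uPA-labelled array 1, as were 1.93% of all genes: Ifit2, Ifit3, Isg15, Oas2, Oasl1, Irf7, Usp18, Cmpk2 and Eif2ak2. These are differences between single arrays, with no replicate behind them and no test. Arrays 1 and 3 are also those on which the members' own mean was lowest and highest. An excess of the members over all genes is therefore partly built into the choice of arrays.

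**Figure D1:**
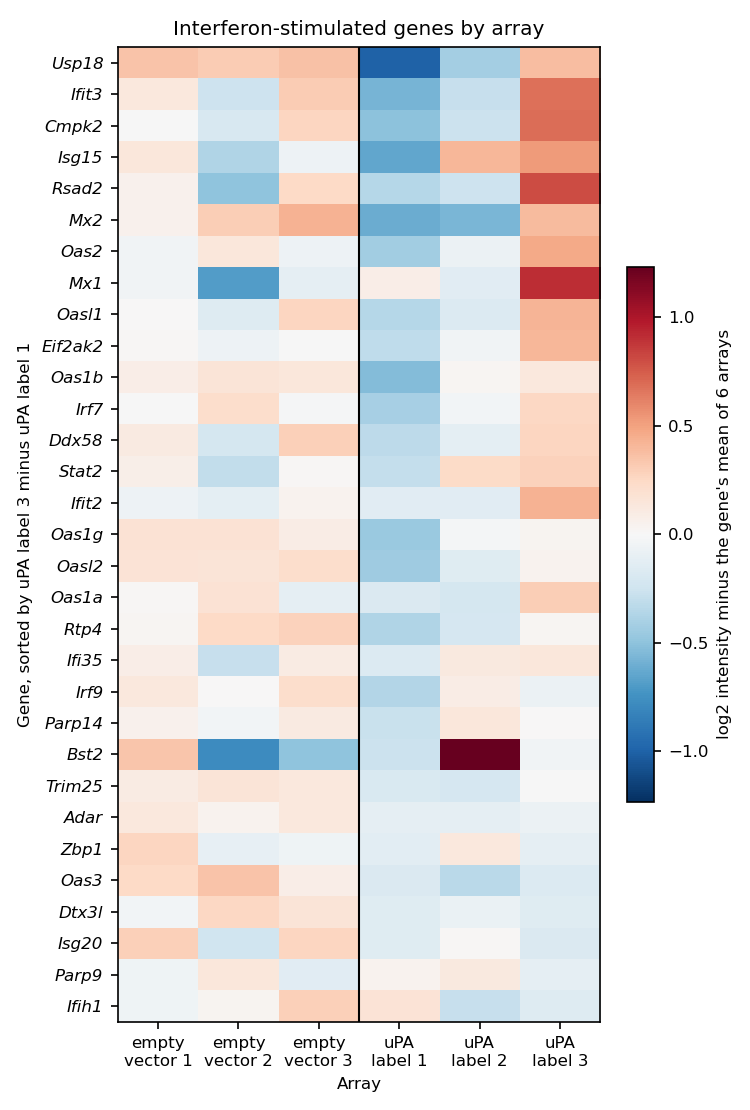
Heat map of the 31 tested interferon-stimulated genes (rows) on the 6 arrays (columns), coloured by log2 intensity minus the gene's mean over the arrays and sorted by uPA label 3 minus uPA label 1. The column of uPA label 1 is mostly blue (18 genes have their lowest value there) and that of uPA label 3 holds the highest value of 14 genes.

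Within each group, though not over all 6 arrays, skeletal muscle markers had the same order of arrays as the members' mean. The mean centred level of the 4 that passed the filter, of 6 on the list, was -1.20, -1.33 and 0.90 on empty vector arrays 1 to 3 and -0.55, -0.18 and 2.36 on uPA-labelled arrays 1 to 3. Their summed intensity ran from 315.1 to 1715 in the empty vector group and from 481.8 to 5910 in the uPA-labelled group, and all 6 were detected on some array. The members' mean was 0.09, -0.05 and 0.11 on empty vector arrays 1 to 3 and -0.31, -0.05 and 0.21 on uPA-labelled arrays 1 to 3. Adipocyte and fibroblast markers were also highest on uPA-labelled array 3 within that group. So were those of mast cells (0.77, 0.60 and 0.87 on uPA-labelled arrays 1 to 3) and plasmacytoid dendritic cells (0.08, 0.01 and 0.50). The 1 B cell marker tested stood at -0.11, 0.07 and 0.09. The 3 adipocyte markers that passed the filter had a mean centred level of 0.14, 1.46 and -1.07 on the empty vector arrays and -0.60, -0.48 and 0.55 on the uPA-labelled arrays, and all 3 were higher on array 3 than on array 1. Their list's summed intensity ran from 165.2 to 693.7 against 211.1 to 435.3, with Plin1, Fabp4 and Retn detected on no array. The 10 fibroblast markers stood at 0.02, 0.38 and -0.10 against -0.27, -0.18 and 0.16, with 7 of 10 higher on array 3 than on array 1 and summed intensity from 12891 to 18090 against 12839 to 16972. The part of RNA from any of these cell types in the members' pattern was not tested. In whole tumours, fewer cells of a type and less RNA per cell cannot be told apart.

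The members' median difference moved with the uPA-labelled arrays present. With array 1 left out, the members' median moved from -0.12 to 0.02 and 14 were lower in place of 22. With array 3 left out it was -0.24, and 26 were lower. Members differed in this: Adar, for example, stayed between -0.23 and -0.18 with each of the 6 arrays left out. The count of members past the threshold stayed at 0 with each of the 6 arrays left out, and the smallest adjusted p of any member then was 0.0666.

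Among the transcription factors, none of the 3 passed the test, and all were higher on uPA-labelled array 3 than on array 1. Irf7, the factor that amplifies interferon production, read 7.89, 8.11 and 7.88 on the empty vector arrays and 7.48, 7.86 and 8.16 on the uPA-labelled arrays. The groups overlapped, with the lowest and the highest value both in the uPA-labelled group, and the log2 difference was -0.12 (SE 0.179, adjusted p = 0.735). Irf9, the DNA-binding subunit of ISGF3, read 9.79, 9.66 and 9.87 against 9.29, 9.75 and 9.58. Only uPA-labelled array 2 lay inside the empty vector range, and the difference was -0.23 (SE 0.141, adjusted p = 0.386). Stat2, its partner, read 8.10, 7.72 and 8.04 against 7.74, 8.26 and 8.31. The lowest value was that of empty vector array 2, and the difference was 0.15 (SE 0.184, adjusted p = 0.691).

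The oligoadenylate synthetases are activated by double-stranded RNA and make short oligoadenylates from ATP, which in turn activate the ribonuclease RNase L. All 7 members of the family were measured and 0 passed the test. Their log2 differences were all below 0, from -0.45 to -0.02 with a median of -0.25, although the sign turned for Oas1a, Oas2 and Oasl1 under some alternatives or with 1 array left out. Oas3 read 5.36, 5.47 and 5.19 on the empty vector arrays and 4.94, 4.78 and 4.94 on the uPA-labelled arrays. The groups did not overlap, and its difference of -0.45 (SE 0.115) had the smallest adjusted p of any member (0.0688). It was detected on 3 empty vector arrays but on 1 uPA-labelled array, so it entered the test through the group in which it was brighter, and its level in that other group was above background on a single array. It passed the threshold with array weights (-0.43, adjusted p = 0.0407) and when arrays were scaled to their 75th percentile (-0.50, adjusted p = 0.0464), and its adjusted p ran from 0.0407 to 0.21 over the alternatives.

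Oasl2, an oligoadenylate synthetase-like protein, read 11.68, 11.67 and 11.73 on the empty vector arrays. On the uPA-labelled arrays it read 11.07, 11.36 and 11.56. The empty vector values lay within 0.06 of each other and above all of the uPA-labelled ones, and the difference was -0.36 (SE 0.139, adjusted p = 0.197). Oas1g read 10.89, 10.90 and 10.81 against 10.26, 10.69 and 10.76, again without overlap, with a difference of -0.30 (SE 0.148, adjusted p = 0.303). Its uPA-labelled array 1 lay well below the other arrays of the group. A second Oas1g probe, ILMN_2628822, was also detected on every array. It read 9.78, 9.31 and 9.54 against 9.03, 9.78 and 9.69. On that probe the groups overlapped, with a difference of -0.04 (SE 0.22, adjusted p = 0.937 over all probes), so the lack of overlap held for the brightest probe only.

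Oas2 showed the wide spread instead, at 8.47, 8.65 and 8.46 against 8.09, 8.44 and 8.99. The uPA-labelled values lay on both sides of all empty vector values, and the group difference was -0.02 (SE 0.218, adjusted p = 0.961). Oasl1, which in mice represses translation of Irf7, had the same form at 8.25, 8.08 and 8.51 against 7.90, 8.08 and 8.67. Oas1b, whose product is truncated in most laboratory strains, was near 6.0 on all arrays but uPA-labelled array 1, at 5.97, 6.05 and 6.04 against 5.35, 5.92 and 6.03. Oas1a read 5.62, 5.78 and 5.49 against 5.43, 5.39 and 5.91, with overlap. Oas1a, Oas1b and Oas1g are close paralogs, so a probe's signal may include its relatives.

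Antiviral effectors act on the virus or on the RNA it needs. Of the 9 in the set, 8 passed the filter and 0 passed the test, with 4 lower and 4 higher and a median log2 difference of 0.03. This group had the highest mean on uPA-labelled array 3 (0.46, against -0.32 on array 1). Rsad2, which encodes viperin, a maker of a chain-terminating nucleotide, read 9.46, 8.92 and 9.66 on the empty vector arrays and 9.05, 9.15 and 10.21 on the uPA-labelled arrays. Array 3 of the uPA-labelled group stood above the other 5 and empty vector array 2 below them. The group difference was 0.13 (SE 0.332, adjusted p = 0.861), and it ran from -0.24 to 0.34 as each array was left out.

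Cmpk2, a nucleotide kinase whose gene lies next to Rsad2, read 7.96, 7.77 and 8.23 against 7.46, 7.70 and 8.66. Like its neighbour it was highest on uPA-labelled array 3, and its group difference was -0.05 (SE 0.301, adjusted p = 0.945). Ifit3, which binds other Ifit proteins on foreign RNA, read 9.92, 9.53 and 10.10 against 9.22, 9.50 and 10.47. Its level on uPA-labelled array 3 was 2.39-fold that on array 1, while the group difference was -0.12 (SE 0.320, adjusted p = 0.863). Its neighbour Ifit2 read 8.57, 8.51 and 8.68 against 8.49, 8.50 and 9.06, so that only array 3 of the uPA-labelled group stood apart. That did not hold on the other Ifit2 probe, ILMN_2981169, at 8.15, 8.08 and 8.46 against 8.12, 8.09 and 8.48. There empty vector array 3 was about as high. The probe of Ifit1, the third of these genes in the set, ran from 4.36 to 4.50 and was not well above background on any array.

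Mx2, a dynamin-like GTPase, read 7.26, 7.51 and 7.63 on the empty vector arrays and 6.59, 6.65 and 7.60 on the uPA-labelled arrays. Arrays 1 and 2 of the uPA-labelled group lay below every empty vector array and array 3 lay among them. The difference of -0.52 (SE 0.269, adjusted p = 0.318) became -0.85 (SE 0.15, adjusted p = 0.0666) with uPA-labelled array 3 left out, and its adjusted p reached 0.594 under another alternative. Mx1, which is defective in BALB/c and most laboratory strains, moved the other way between groups. It read 5.62, 4.97 and 5.54 against 5.74, 5.52 and 6.57, and was not detected on 1 empty vector array. The groups overlapped, and the difference was 0.57 (SE 0.295, adjusted p = 0.321).

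Bst2, or tetherin, which holds budding virus at the cell surface, had the widest range of any member at 2.01 log2 units. It read 8.09, 6.97 and 7.25 against 7.48, 8.98 and 7.71. Its highest value was on uPA-labelled array 2, not on array 3, and its difference was 0.62 (SE 0.434, adjusted p = 0.461), or 0.16 with that array left out. Isg20, an RNA exonuclease, read 7.68, 7.15 and 7.66 against 7.24, 7.41 and 7.21, and was not higher on uPA-labelled array 3 than on array 1.

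**Figure D2:**
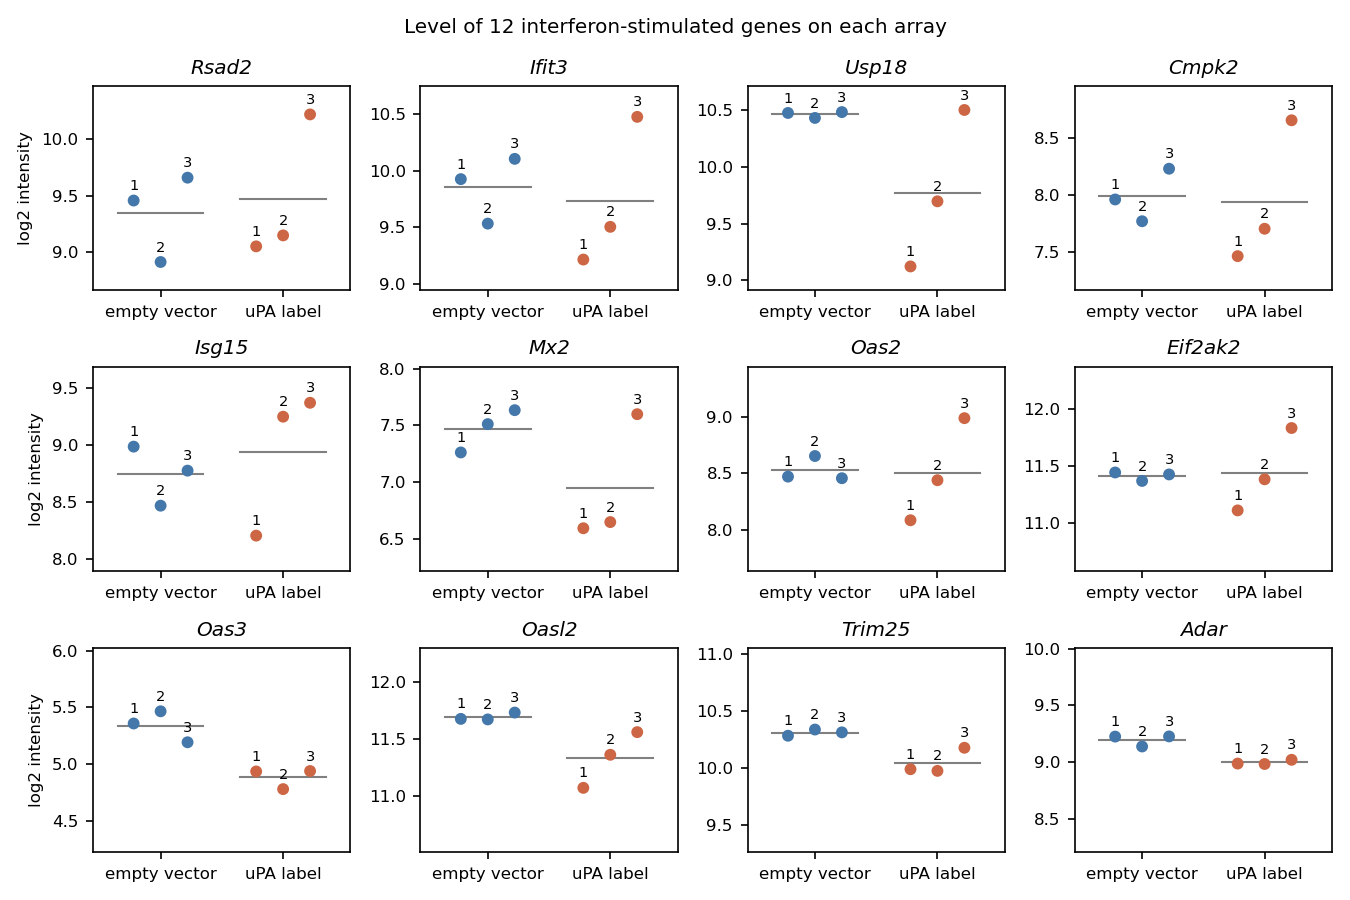
Log2 intensity of 12 interferon-stimulated genes on each array, by group, with the array number above each point and a line at the group mean; every panel spans the same number of log2 units. In Rsad2, Ifit3, Cmpk2, Oas2 and Eif2ak2 uPA label 3 lies above the other 5 arrays, while in Oas3, Oasl2, Trim25 and Adar the groups do not overlap.

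In the Isg15 pathway both measured genes ranged further within the uPA-labelled group than the group means lay apart. Isg15, the ubiquitin-like tag, read 8.99, 8.47 and 8.78 on the empty vector arrays and 8.20, 9.25 and 9.37 on the uPA-labelled arrays. Arrays 2 and 3 of the uPA-labelled group lay above all empty vector arrays and array 1 below them. The difference was 0.20 (SE 0.309, adjusted p = 0.756), and 0.57 (SE 0.176, adjusted p = 0.179, the smallest of the alternatives, whose largest was 0.987) with uPA-labelled array 1 left out. Usp18, the protease that removes Isg15 and also blocks signalling at Ifnar2, read 10.47, 10.43 and 10.48 against 9.12, 9.70 and 10.50. The empty vector values lay within 0.05 of each other, while the uPA-labelled values spanned 1.38. Its difference of -0.69 (SE 0.309, adjusted p = 0.254) was the lowest of any member, and it was -1.05 (SE 0.186, adjusted p = 0.0666) without uPA-labelled array 3 and -0.36 without array 1 (adjusted p = 0.475, the largest of the alternatives).

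Sensors of foreign nucleic acid and their partners made up 6 members, of which 0 passed the test and 5 were lower, with a median of -0.15. Ddx58, or RIG-I, read 7.91, 7.57 and 8.09 against 7.47, 7.68 and 8.06. The groups overlapped, and the difference was -0.12 (SE 0.192, adjusted p = 0.758). Trim25, the ubiquitin ligase that acts on RIG-I, read 10.28, 10.34 and 10.31 against 9.99, 9.97 and 10.18. All of the uPA-labelled arrays were below all empty vector arrays, and the difference was -0.26 (SE 0.103, adjusted p = 0.202). Ifih1, or MDA5, read 5.23, 5.31 and 5.58 against 5.45, 5.0 and 5.12, and was among the 4 members not higher on uPA-labelled array 3 than on array 1.

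Eif2ak2, the kinase PKR that halts translation on double-stranded RNA, read 11.44, 11.37 and 11.42 against 11.11, 11.38 and 11.83. The empty vector values lay within 0.07 of each other, with uPA-labelled arrays 1 and 3 on either side. Its mean difference was 0.03 (SE 0.181, adjusted p = 0.942), which turned to -0.04 with scaling to the 75th percentile. Adar, which edits adenosine in double-stranded RNA, read 9.23, 9.14 and 9.23 against 8.99, 8.98 and 9.02. These groups did not overlap although the difference was only -0.20 (SE 0.0935, adjusted p = 0.274). On this probe, the brightest of the gene, uPA-labelled arrays 1 and 3 were not apart (0.03). The other Adar probes read array 3 above array 1, by 0.54, 0.41, 0.20 and 0.19. Zbp1, a sensor of left-handed nucleic acid, ran from 6.68 to 7.08 with overlapping groups.

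Parp14, Dtx3l and Parp9 are neighbouring genes for an ADP-ribosyltransferase group, in which the ubiquitin ligase Dtx3l works with Parp9. None of the 3 passed the test. Dtx3l read 10.65, 10.94 and 10.85 on the empty vector arrays and 10.54, 10.60 and 10.53 on the uPA-labelled arrays. Its groups did not overlap, its uPA-labelled values lay within 0.07 of each other, and the difference was -0.26 (SE 0.112, adjusted p = 0.245). Parp14 read 11.09, 11.01 and 11.15 against 10.77, 11.18 and 11.04, and Parp9 6.21, 6.40 and 6.11 against 6.30, 6.38 and 6.15. Neither set of values separated the groups. The centred mean of the group was -0.13 on uPA-labelled array 1, 0.06 on array 2 and -0.09 on array 3.

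Of the remaining members, Rtp4, a receptor transporter with antiviral action, read 6.76, 6.98 and 7.02 against 6.37, 6.53 and 6.76. The groups met at a single point, since uPA-labelled array 3 and empty vector array 1 both read 6.76, and the difference was -0.37 (SE 0.137, adjusted p = 0.186). Ifi35 read 8.99, 8.62 and 9.01 against 8.74, 9.03 and 9.05, and its difference was 0.07 (SE 0.149, adjusted p = 0.836). Xaf1, a partner of the apoptosis inhibitor XIAP, was not well above background on any array.

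**Figure D3:**
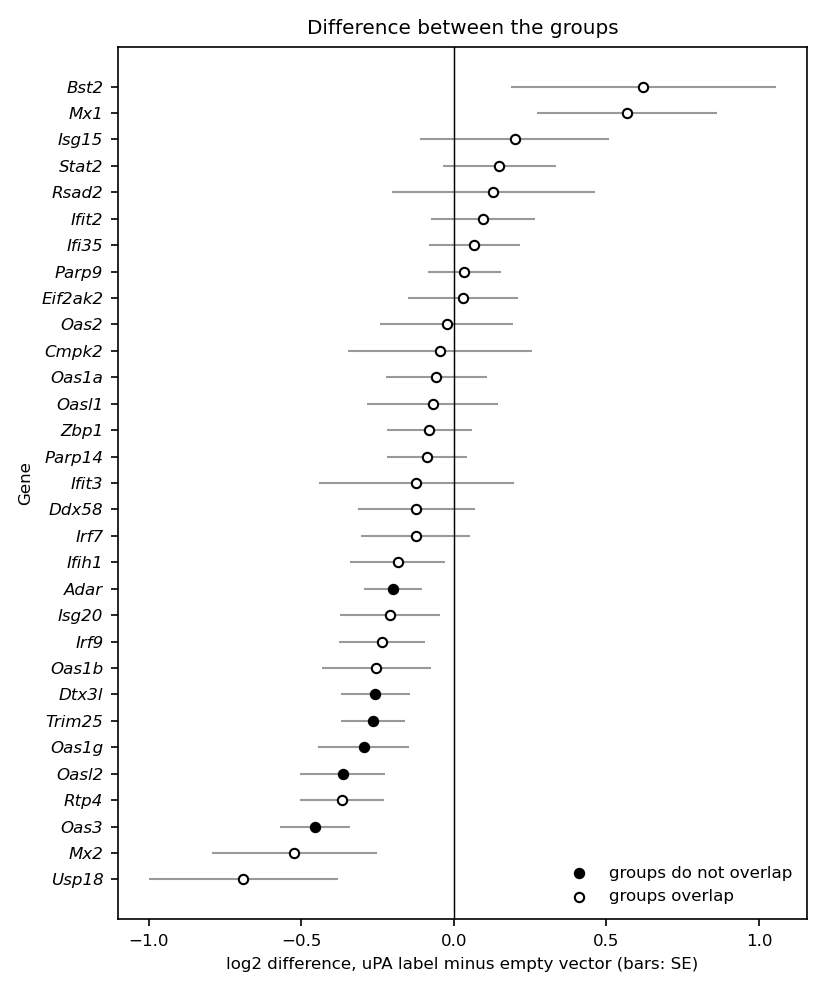
Log2 difference (uPA label minus empty vector, horizontal axis) of the 31 tested members, with bars for the standard error from the fit; filled points mark genes whose groups do not overlap. The 6 filled points all lie below 0, and none of the 31 passed an adjusted p of 0.05.

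Several members had more than 1 probe, and their probes did not always have the same sign. Of the 52 probes that passed the filter, 0 had an adjusted p under 0.05 over all probes, against 3.57% of 20434 probes, and 10 had an unadjusted p under 0.05, against 19.6%. For 12 probes the groups did not overlap, 10 lower and 2 higher, against 26.9% of all probes. They include Parp9 probe ILMN_2486102 and Adar probe ILMN_2441249, each detected in 1 group only and passing the filter through that group. The smallest adjusted p was that of Parp9 probe ILMN_2486102 (0.0623), at 5.44, 5.20 and 5.16 on the empty vector arrays and 4.41, 4.74 and 4.79 on the uPA-labelled arrays. It was detected on all empty vector arrays and no uPA-labelled one, so it entered the test through the group in which it was brighter. On these arrays its mean level was at least 1.26-fold higher in the empty vector group. That bound sets its mean against, for each uPA-labelled array, the lowest signal detected there. The brighter Parp9 probe differed by 0.03 only.

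Oasl2 probe ILMN_2599154 read 7.95, 7.89 and 8.04 against 7.10, 7.54 and 7.48. Its groups lay apart, with a difference of -0.58 (SE 0.141, adjusted p = 0.0718), and the other probes of the gene gave -0.36 and -0.13. The second Trim25 probe gave -0.50 (SE 0.125, adjusted p = 0.0794) beside -0.26 for the first. The 5 Adar probes differed in sign. ILMN_3021272 gave -0.69 (SE 0.199, adjusted p = 0.114). ILMN_2441249 was detected on 3 uPA-labelled and 0 empty vector arrays, so it too entered the test through the brighter group. On these arrays its mean level was at least 1.10-fold higher in the uPA-labelled group (adjusted p = 0.284). For Parp14 the brightest probe gave -0.09 and ILMN_1248260 gave 0.63 (SE 0.216, adjusted p = 0.171). The latter probe was near background and was detected on 2 of the 3 empty vector arrays.

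Array 3 of the uPA-labelled group also stood above array 1 on most of the members' other tested probes, which come from the same arrays and add no replicate. The exceptions were Parp14 ILMN_1248260 (-0.38), Zbp1 ILMN_1218547 (-0.23), Trim25 ILMN_2927093 (-0.09) and Dtx3l ILMN_1247917 (-0.08). Ifit3 probe ILMN_1230458 read 7.66, 6.03 and 7.67 against 6.51, 7.25 and 8.19, so array 3 stood 1.68 log2 units above array 1. Usp18 probe ILMN_3054914 read 8.34, 7.27 and 8.40 against 6.58, 7.65 and 8.10, with 1.52 units between those arrays. On both probes empty vector array 2 was more than 1 unit below the other empty vector arrays, a gap that the brighter probe of Usp18 did not show. Oas1b probe ILMN_2823462 read 6.08, 6.23 and 6.24 against 5.0, 5.19 and 6.18, with array 3 of the uPA-labelled group alone at the empty vector level.

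**Figure D4:**
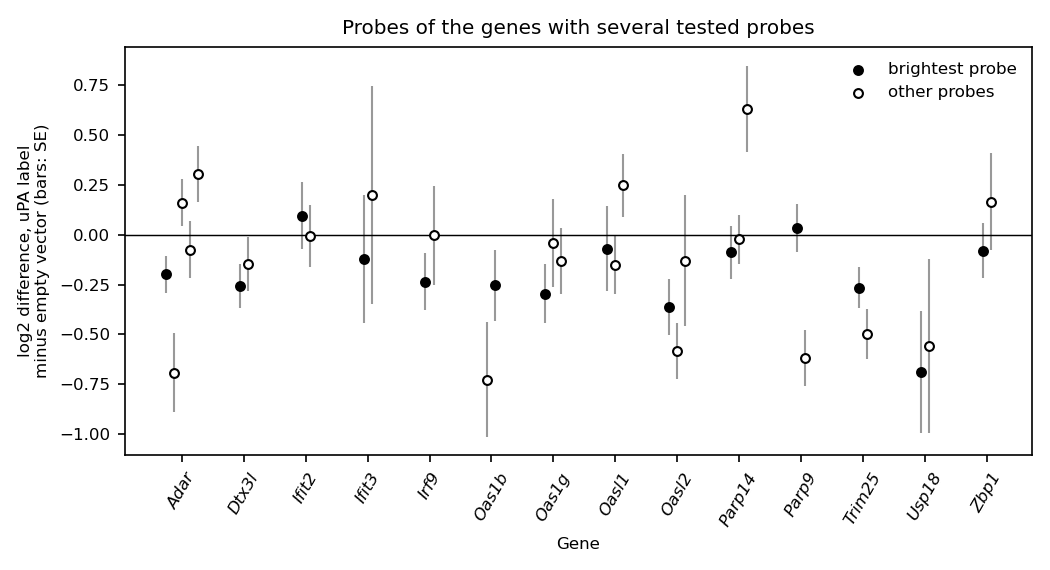
Log2 difference (uPA label minus empty vector, vertical axis) of each tested probe for the members with several tested probes, with bars for the standard error; the filled point is the probe with the highest mean, which represents the gene. Probes of Adar, Parp14 and Parp9 lie on both sides of 0, and those of Oasl2, Trim25 and Usp18 lie below it.

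Genes upstream of the members were read from lists of the pathway. Of 21 interferon ligands and receptors with a probe, 8 passed the filter, 0 rose and 1 fell (12.5% called, against 5.41% of all genes). Another 11 were detected on no array, among them Ifnb1 (4.35 to 4.53) and Ifnar1 (4.28 to 4.44). The median difference of the 8 was 0.00 (0.0036). Ifnlr1, the receptor chain for type III interferon, fell from 8.00, 8.07 and 7.75 to 6.94, 7.14 and 6.79, without overlap (-0.98, SE 0.138, adjusted p = 0.0150). It did not pass without empty vector array 1 (adjusted p = 0.0635), uPA-labelled array 1 (0.0618) or uPA-labelled array 3 (0.0629). Ifnar2 read 7.29, 7.51 and 7.19 against 7.81, 7.64 and 7.73, also without overlap, but did not pass the threshold (0.39, SE 0.121, adjusted p = 0.120). Of 13 kinases, phosphatases and other regulators of interferon signalling, 0 passed the test and the median was 0.02. The 2 with the smallest p were the phosphatase Ptpn6 (0.43, SE 0.132, adjusted p = 0.122) and Pias1 (0.25, SE 0.109, adjusted p = 0.242).

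Of 23 genes for nucleic acid sensing and interferon induction, 3 rose and 1 fell (17.4% called, against 5.41% of all genes), with a median of 0.17. Tlr7, the endosomal receptor for single-stranded RNA, rose from 6.70, 6.96 and 6.56 to 7.98, 7.72 and 7.69 (1.05, SE 0.142, adjusted p = 0.0147). Unc93b1, which carries such receptors to the endosome, rose by 0.89 (SE 0.192, adjusted p = 0.0446), and Aim2, a sensor of cytosolic DNA, by 0.74 (SE 0.107, adjusted p = 0.0171). Tlr3, the receptor for double-stranded RNA, fell by 0.67 (SE 0.104, adjusted p = 0.0186). In all 4 the groups did not overlap, as in 12 of the 23 genes, against 29.7% of all genes. With each array left out in turn their directions held, but Tlr7 and Aim2 passed the threshold in 2 of the 6 fits and Unc93b1 and Tlr3 in 1 (largest adjusted p 0.0599, 0.0708, 0.145 and 0.0717), in each case with empty vector array 2 left out. Unc93b1 had an adjusted p of 0.0643 when arrays were set to their 75th percentile and of 0.0707 without the filter. Irf3, which induces interferon genes, differed by 0.17 (SE 0.0968, adjusted p = 0.358). Of the sensing genes, 12 of 23 were higher on uPA-labelled array 3 than on array 1, against 48.7% of all genes, with a median of 0.03 (0.025).

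A list of other interferon-stimulated genes, with no member in it, gave 0 calls in 55 genes tested, against 5.41% of all genes. An unadjusted p under 0.05 was found for 10 of them, against 21.3% of all genes, and the median difference was 0.03. Array 3 of the uPA-labelled group was above array 1 for 47 of the 55, against 48.7% of all genes, with a median of 0.29. The lowest value was on uPA-labelled array 1 for 19 of the 55, against 17.4% of all genes. Their mean centred level was 0.02, -0.21 and 0.04 on the empty vector arrays and -0.15, 0.15 and 0.16 on the uPA-labelled arrays. Here uPA-labelled array 2 was about as high as array 3, and empty vector array 2 was the lowest. The genes with the smallest p were Oas1d (-0.48, SE 0.119, adjusted p = 0.0664) and Ifi27l2a (0.58, SE 0.150, adjusted p = 0.0729). The list of Isg15 conjugation genes, 5 tested and 3 of them members, gave 0 calls and a median of 0.20.

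Markers of other cells differed by label, and the share called over all genes tested was 5.41%. Of 13 macrophage and monocyte markers 9 rose, with summed intensity from 23634 to 29457 on the empty vector arrays and from 49087 to 59074 on the uPA-labelled arrays. Of 8 mast cell markers 6 rose (1322 to 1919 against 3607 to 4537). Of 10 markers of mammary epithelium and 4T1 carcinoma 7 fell, from 47122 to 53842 down to 27601 to 32875. Among 8 neutrophil markers 3 fell (14487 to 15620 against 3573 to 8808). Most of that sum came from a single gene, Mmp9, at 13.55, 13.68 and 13.50 against 11.72, 12.68 and 11.13. Of the 8 neutrophil markers, 7 had a difference below 0, and the median was -0.58. In addition, 1 of 10 fibroblast markers fell (Pdgfrb) and 1 of 4 NK cell markers rose (Nkg7). These counts rest on few arrays: without uPA-labelled array 1 they were 0 macrophage, 1 mast cell, 1 epithelial and 0 neutrophil markers, and without uPA-labelled array 3 they were 3, 3, 2 and 0. Without empty vector array 1 they were 3, 6, 1 and 0, and without empty vector array 3 they were 2, 4, 3 and 1. They held better without empty vector array 2 (10, 6, 7 and 2) and without uPA-labelled array 2 (8, 5, 8 and 2). Over all genes, 604 and 333 were called in those 2 fits, against 33 to 87 in the others. The Pdgfrb and Nkg7 calls each held in 1 of the 6 such fits. None of 6 T cell, 1 B cell, 4 conventional dendritic cell, 6 endothelial and 3 adipocyte markers passed the test. Plasmacytoid dendritic cells, a rich source of type I interferon, had 6 markers tested and 0 called. Their mean centred level was -0.33, 0.08 and -0.33 on the empty vector arrays and 0.08, 0.01 and 0.50 on the uPA-labelled arrays, and Ccr9 was detected on no array. The part of these cells in the members' values was not tested.

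**Figure D5:**
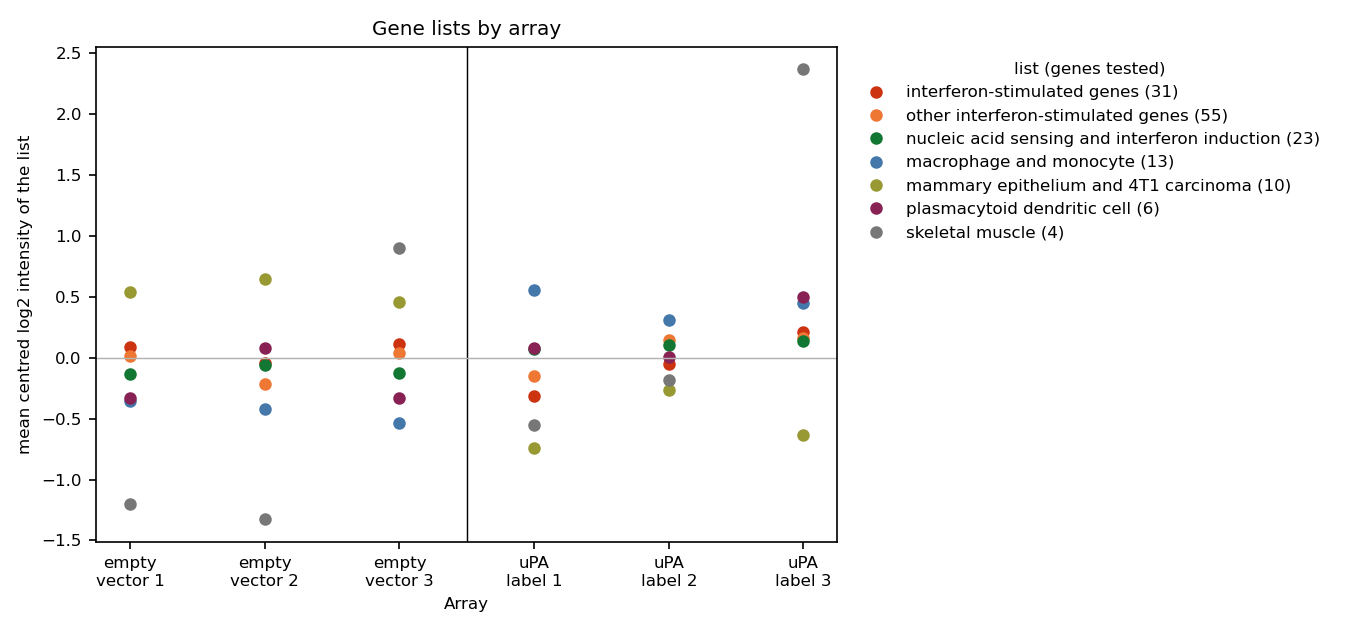
Mean centred log2 intensity (vertical axis) of 7 gene lists on each array, with the number of genes tested in brackets. The interferon-stimulated genes run from -0.31 on uPA label 1 to 0.21 on uPA label 3, while macrophage markers lie above 0 and epithelial markers below 0 on all arrays of that label and skeletal muscle markers reach 2.36 on uPA label 3.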

How the data were processed

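Total RNA of tumours was read on 6 arrays (Illumina MouseWG-6 BeadChips version 2.0), per the labels' protocols and the series design text. The deposited raw table holds an intensity for each bead address, not normalised, per the file headers and the values. Its detection value rises with brightness and was turned round to give a detection p-value. The second deposited table holds log2 values that the authors made with GeneSpring GX 11.0, per the series design text. Their centring stays unknown. Medians of the processed columns were 0.00225, 0.00419 and 0.00197 for empty vector 1 to 3 and 0.00333, 0.00247 and 0.00288 for uPA-labelled 1 to 3.

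The raw and processed tables were joined by their values, and 45222 of 45281 rows matched. On simulated rows 44960 matched and 0 were wrong. Names came from the platform annotation (34885 probes with 1 symbol, 18 with several, 10378 with none), and all 62 member probes were joined. Raw intensities were corrected by normexp (offset 16), with the level of negative controls taken from those detection values, then quantile-normalised and put on a log2 scale in limma 3.58.1 under R 4.3.3. Probes detected at p under 0.05 on at least 3 arrays were fitted with lmFit and eBayes without covariates, with two-sided tests and p adjusted by Benjamini-Hochberg. The fit was tested on simulated data. A gene was represented by its tested probe with the highest mean, and p was adjusted again over genes. Probe IDs were not placed on a genome, since no build is given for the array in the sources used here. The number of arrays limits the precision.

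Members and lists were chosen with earlier results of these data known. Named were all members. Of each other list, called genes (at most 8 by smallest p) or else the 2 with the smallest p were eligible, plus Plau, Irf3, Ifnar1, Ifnar2 and Ifnb1. Alternatives were other background, scaling, filter, source, prior, weight and probe settings, a replicate block and each array left out.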

Additional observations from a re-analysis of the deposited data

How the results depend on the processing

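The number of genes called over the whole table was 586, and from 538 to 872 under 8 alternatives: raw values without background correction, an offset of 50, arrays scaled to their 75th percentile, all probes, only probes detected on each of the 6 arrays, the authors' processed values, a trended and robust prior, and the mean of a gene's probes. It was 1070 with array weights and ran from 33 to 604 with 1 array left out. Members called were 0 under these settings except for 1, Oas3, with scaling to the 75th percentile and 1, Oas3, with array weights, and 0 to 0 with 1 array left out. Among probes, Oasl2 ILMN_2599154 was called without background correction, with offset 50, with the processed values and with array weights, and Parp9 ILMN_2486102 with scaling to the 75th percentile and with array weights. The members' median of -0.12 ran from -0.24 to 0.02 with 1 array left out. The mean centred levels of the members on the 6 arrays moved by less than 1 SD between replicates (0.194) under the 4 alternatives run on them.

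Deviations of same-numbered arrays from their group means correlated at -0.186, -0.264 and 0.0727, and those of differently numbered arrays at -0.124 to 0.322. With 3 arrays in a group, these values cannot settle whether the samples were paired. With the replicate number as a block, 77 genes and 0 members were called, and adjusted p was 0.0810 for Plau, 0.0534 for Tlr7, 0.103 for Unc93b1, 0.0658 for Aim2 and 0.0775 for Tlr3.

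Signs turned for Eif2ak2 (-0.0432) with scaling to the 75th percentile, for Oas1a (0.014) and Oas2 (0.089) with array weights, and for Ifit3 (0.0385), Oasl1 (0.0099), Zbp1 (0.0428), Parp9 (-0.29) and Parp14 (0.17) with the mean of all probes. With 1 array left out, differences that changed sign ran from -0.16 to 0.0337 for Zbp1, from -0.22 to 0.0349 for Oas1a, from -0.26 to 0.19 for Oas2, from -0.24 to 0.34 for Rsad2, from -0.0577 to 0.17 for Ifi35, from -0.49 to 0.14 for Ifit3, from -0.29 to 0.0895 for Oasl1, from -0.40 to 0.19 for Cmpk2, from -0.0282 to 0.11 for Parp9, from -0.29 to 0.05 for Irf7, from -0.28 to 0.0104 for Ddx58, from -0.18 to 0.0269 for Parp14, from -0.0923 to 0.19 for Ifit2, from -0.0162 to 0.57 for Isg15 and from -0.17 to 0.20 for Eif2ak2. The cause was not tested. Signal over background limits Oas3 and Mx1, which were not detected on every array. The same holds for probes Parp9 ILMN_2486102, Adar ILMN_2441249, Parp14 ILMN_1248260, Oas1g ILMN_2816196, Oasl1 ILMN_2722380 and Zbp1 ILMN_1218547.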
